A study of Mus musculus with 32 samples.

Results

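On mouse chromosome 9, 127 of the 24411 genes of the exon count table lie within 10 Mb of Cx3cr1 and are described here. They are the genes whose start is at or beyond position 110000000 of the mm9 build, which leaves a stretch of 9.92 Mb on the side with lower coordinates and 3.8 Mb on the other. Cx3cr1 itself (chr9:119957801-119977414), Mobp, Tgfbr2, Ccrl2, genes whose symbol starts with Ccr, Zfp, Rpl, Rps or Eif, and non-coding RNA rows were left out of the 168 rows of that stretch. Of the 127 genes, 82 start on the lower side of Cx3cr1 and 45 on the higher side. The rule uses position and name alone, but it was set with earlier results of these data known.

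RNA with poly(A) tails was sequenced from brains of 4 Cx3cr1-CreER:RPL22-HA mice and 4 Sall1-CreER:RPL22-HA mice, both labelled C57BL/6. All 8 carry a tamoxifen-dependent Cre and the RiboTag allele, which adds an HA epitope to the ribosomal protein RPL22 in cells where Cre has acted, and all were gavaged on alternate days with 4 doses of 5 mg tamoxifen when 4 to 6 weeks old. No mouse without Cre or without tamoxifen was among them. Each brain gave microglia sorted by flow cytometry (Sort), sorted microglia followed by an anti-HA precipitation (SortIP), an anti-HA precipitate of homogenate (direct HA), and a precipitate of homogenate with a control antibody (IgG). The labels number the mice 1 to 4 in the Cx3cr1 line and 17, 21, 7 and 9 in the Sall1 line.

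CX3CR1 is the receptor for fractalkine and marks microglia and other myeloid cells, and SALL1 is a transcription factor that marks microglia among adult immune cells and is also used in other tissues. CreER drivers are commonly placed in the gene that names them, and DNA beside such an allele is inherited with it. How these driver alleles were made is not stated in the labels, the files hold no genotypes, and line, breeding, litter and handling cannot be told apart in this design.

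The question for these genes was whether their RNA differed between the lines in sorted cells. Titles and descriptions of the 8 sorted libraries of the Cx3cr1 line exchange Sort and SortIP. Counts of both sorted libraries of each mouse were therefore added, and these sums do not depend on which label is right. The mix of the 2 materials in a sum followed depth. In the Cx3cr1 line, titled Sort libraries held 677423 to 1058912 gene counts and titled SortIP libraries 746794 to 1808789. In the Sall1 line they held 761172 to 1453481 and 249881 to 980218. The part of this mix in line differences of the sums was not tested. Gene counts per sorted sum ranged from 1272265 to 2867701, and levels are given as CPM, counts scaled to the same total of 1000000 in each sum. Fold changes are log2 of Sall1 over Cx3cr1 line with their SE, from edgeR's quasi-likelihood test, and a gene was called where its p, adjusted by Benjamini-Hochberg across every tested gene of the table, was under 0.05.

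Microglia markers fitted the sorted label in both lines. The 15 listed markers summed to 70455 to 77527 CPM in the Cx3cr1 line and to 66891 to 74581 CPM in the Sall1 line. A list of 9 border macrophage markers, all detected, summed to 337.5 to 428.1 CPM in the Cx3cr1 line and 594.1 to 861.5 CPM in the Sall1 line. Of these 9, 5 were tested and 5 were higher in the Sall1 line, when 1.62% of all genes were. Of 15 tested microglia markers 1 was higher and 1 lower, and of 3 tested astrocyte markers 1 was lower. No tested dendritic cell, oligodendrocyte, neuron or endothelial marker was called. Summed neutrophil markers ran from 0 to 12.8 CPM in the Cx3cr1 line and from 0.411 to 44.0 CPM in the Sall1 line, and none of them could be tested. Cx3cr1 was at 2429 to 3949 CPM in the Cx3cr1 line and at 4254 to 5910 CPM in the Sall1 line (log2 0.70 ± 0.18, adjusted p = 0.0847), while Sall1 was lower in the Sall1 line (log2 -0.76 ± 0.10, adjusted p = 3.22e-04). Rpl22, the tagged gene, differed by log2 0.39 ± 0.11 (adjusted p = 0.0897).

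Of the 127 genes, 66 had enough counts in sorted cells to be tested and 61 did not. Among those 61, 21 had no count in any sorted sum, and the others had at most 61 counts over the 8 sums, with a median over the 61 of 2. Tested genes had mean levels of 4.52 to 449.8 CPM, with a median of 35.3 CPM. Together the 127 genes took 0.397% ± 0.0171 (SD, n = 4) of counts in the Cx3cr1 line and 0.367% ± 0.00884 (SD, n = 4) in the Sall1 line.

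Between the lines, 4 of the 66 tested genes were called (6.06%), against 2.67% of all 9966 genes tested. Lyzl4 and Gadl1 were higher in the Sall1 line, and Gpd1l and Xylb were lower, when 1.62% of all genes were higher and 1.05% lower. At an unadjusted p under 0.05 there were 16 (24.2%, against 13.1% of all genes). Of the rest of chromosome 9, chosen with the same exclusions, 2.05% were called, as were 6.14% of 114 tested genes within 10 Mb of Sall1 on its own chromosome. The median difference of the 66 genes was log2 -0.04 and that of all genes -0.01, and the median of absolute differences was 0.22 against 0.15. The 4 mice of one line did not overlap those of the other for 9 of the 66 (13.6%), against 9.20% of all genes. Lyzl4 and Gadl1 passed the count filter only through the Sall1 mice, in which they were high, whereas Gpd1l and Xylb passed it in both lines. A gene that enters a test in that way had to differ, so the share called is no support for a difference of the group. No test of the group was made.

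Lyzl4 encodes a lysozyme-like protein of the C-type lysozyme family, whose relatives are known mostly from testis and sperm. It lies on the minus strand at chr9:121486961-121550684, 1.53 Mb beyond Cx3cr1. The gene has a single row of exon counts, listed under a single transcript, so its transcript starts cannot be told apart. RefSeq places 3 starts for it, and their windows, 250 bases before to 50 after each start, are printed because this gene had the largest difference of the 66. They are on the minus strand of GRCm38.p6, a different build from that of the count table. Capitals mark GGAAGT, the core that PU.1 and related ETS factors bind, or its reverse complement ACTTCC.
Lyzl4 start 1, chr9:121586912-121587211: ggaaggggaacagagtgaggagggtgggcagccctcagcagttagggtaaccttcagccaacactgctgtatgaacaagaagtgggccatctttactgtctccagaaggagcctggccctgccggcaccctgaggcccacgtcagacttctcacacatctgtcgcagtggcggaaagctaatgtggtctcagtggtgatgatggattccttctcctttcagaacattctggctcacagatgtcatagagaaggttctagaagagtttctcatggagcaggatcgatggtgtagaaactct
Lyzl4 start 2, chr9:121641545-121641844: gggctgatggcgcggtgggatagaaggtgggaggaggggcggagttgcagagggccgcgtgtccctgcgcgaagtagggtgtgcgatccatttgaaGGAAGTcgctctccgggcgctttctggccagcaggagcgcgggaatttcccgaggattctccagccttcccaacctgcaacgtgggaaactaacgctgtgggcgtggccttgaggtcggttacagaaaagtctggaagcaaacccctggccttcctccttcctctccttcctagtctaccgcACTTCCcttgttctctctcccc
Lyzl4 start 3, chr9:121642072-121642371: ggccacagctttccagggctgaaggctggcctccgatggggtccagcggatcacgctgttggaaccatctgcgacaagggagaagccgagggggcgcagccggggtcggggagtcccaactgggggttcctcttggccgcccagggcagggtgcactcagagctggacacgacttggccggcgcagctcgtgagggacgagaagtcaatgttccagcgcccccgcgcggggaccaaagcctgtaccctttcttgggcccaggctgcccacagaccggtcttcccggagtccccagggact

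The motif was searched on both strands with no overlap with another motif considered. The second window holds 1 match on each strand, and the first and the third hold none. Over all 32851 RefSeq windows of the same length, 23.8% held at least 1 match, and over the 139 windows of the 107 matched genes near Cx3cr1 26.6% did. A match is a description of the letters only.

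Lyzl4 stood at 3.49, 1.73, 3.14 and 3.07 CPM in Cx3cr1 mice 1, 2, 3 and 4. In Sall1 mice 17, 21, 7 and 9 it stood at 12.7, 17.3, 23.3 and 24.7 CPM. Every Sall1 mouse was far above every Cx3cr1 mouse. The difference was log2 2.71 ± 0.32, or 6.54-fold, at an adjusted p of 8.43e-05. Without a count filter the adjusted p was 7.18e-10. The values rested on 9, 3, 9 and 6 counts in the Cx3cr1 line and 31, 22, 30 and 54 in the Sall1 line. The SortIP library of Sall1 mouse 21 had 0 counts of Lyzl4 among its 249881 gene counts, so all 22 counts of that mouse came from its other sorted library. The antisense gene Lyzl4os had 1 count over all 8 sums.

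Outside sorted cells Lyzl4 was scarce in both lines. In IgG it had 6 counts over the 4 Cx3cr1 mice and 12 over the 4 Sall1 mice, with means of 0.656 ± 0.263 CPM (SD, n = 4) and 1.13 ± 0.93 CPM (SD, n = 4). In direct HA it had 4 and 20 counts, and its means were 2.16 ± 3.26 and 2.07 ± 0.313 CPM (SD, n = 4 each). It passed the count filter in neither material. Averaged over the lines it was higher in sorted cells than in IgG (log2 2.94 ± 0.33, adjusted p = 4.38e-08). It entered that test only through the Sall1 sorted sums, at 12.7 to 24.7 CPM, so this p is no support for a difference. Its sorted sums in the Cx3cr1 line were at 1.73 to 3.49 CPM. The line difference in sorted cells exceeded that in IgG by log2 1.85, with an adjusted p of 0.724 for this difference of differences.

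Gadl1, an enzyme that removes the carboxyl group of acidic amino acids, lies 4.14 Mb before Cx3cr1 on the plus strand (chr9:115818573-115985294). Its levels were 1.16, 3.46, 1.39 and 1.53 CPM in Cx3cr1 mice 1 to 4 and 7.40, 6.29, 8.54 and 6.41 CPM in Sall1 mice 17, 21, 7 and 9. No mouse overlapped between lines, and Cx3cr1 mouse 2 was the highest of its line. The difference was log2 1.99 ± 0.40 (adjusted p = 0.0107), from 3 to 6 counts a mouse in the Cx3cr1 line and 8 to 18 in the Sall1 line. Without a count filter the adjusted p was 0.00432. In IgG its means were 1.70 ± 0.962 and 1.45 ± 0.993 CPM (SD, n = 4 each). The difference of differences against IgG was log2 2.64, with an adjusted p of 0.301.

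Border macrophage markers were higher in the same Sall1 sums in which Lyzl4 and Gadl1 were higher, as given above, and the part of those cells in both results was not tested. Fewer cells of a type and less RNA per cell cannot be told apart in these bulk libraries.

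Gpd1l, which resembles the cytosolic glycerol-3-phosphate dehydrogenase that links sugar and lipid metabolism, lies 5.15 Mb before Cx3cr1 on the minus strand (chr9:114808457-114843105). It stood at 75.2, 77.9, 64.5 and 74.2 CPM in the Cx3cr1 line and at 40.3, 49.5, 50.5 and 50.4 CPM in the Sall1 line. The groups did not overlap, and Sall1 mouse 17 was the lowest. The difference was log2 -0.60 ± 0.13 (adjusted p = 0.0187), from 63 to 194 counts a mouse. Without Cx3cr1 mouse 1 the adjusted p was 0.0652 and without Sall1 mouse 17 it was 0.0981. In IgG, Gpd1l was at 71.4 ± 11.6 and 67.7 ± 17.8 CPM (SD, n = 4 each; log2 -0.12 ± 0.21, adjusted p = 1.0).

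Xylb, the kinase that phosphorylates xylulose, lies 0.69 Mb before Cx3cr1 on the plus strand (chr9:119266499-119302915). Its levels were 22.1, 15.6, 27.2 and 28.1 CPM in the Cx3cr1 line and 11.9, 13.4, 11.7 and 11.0 CPM in the Sall1 line. The Sall1 mice lay close together below all Cx3cr1 mice, which were more spread. The difference was log2 -0.96 ± 0.22 (adjusted p = 0.0243). With 1 mouse left out at a time, the gene was called in 2 of 8 fits, with adjusted p from 0.00563 to 0.0825. In IgG the difference was log2 -0.28 ± 0.40 (adjusted p = 1.0).

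**Figure D1:**
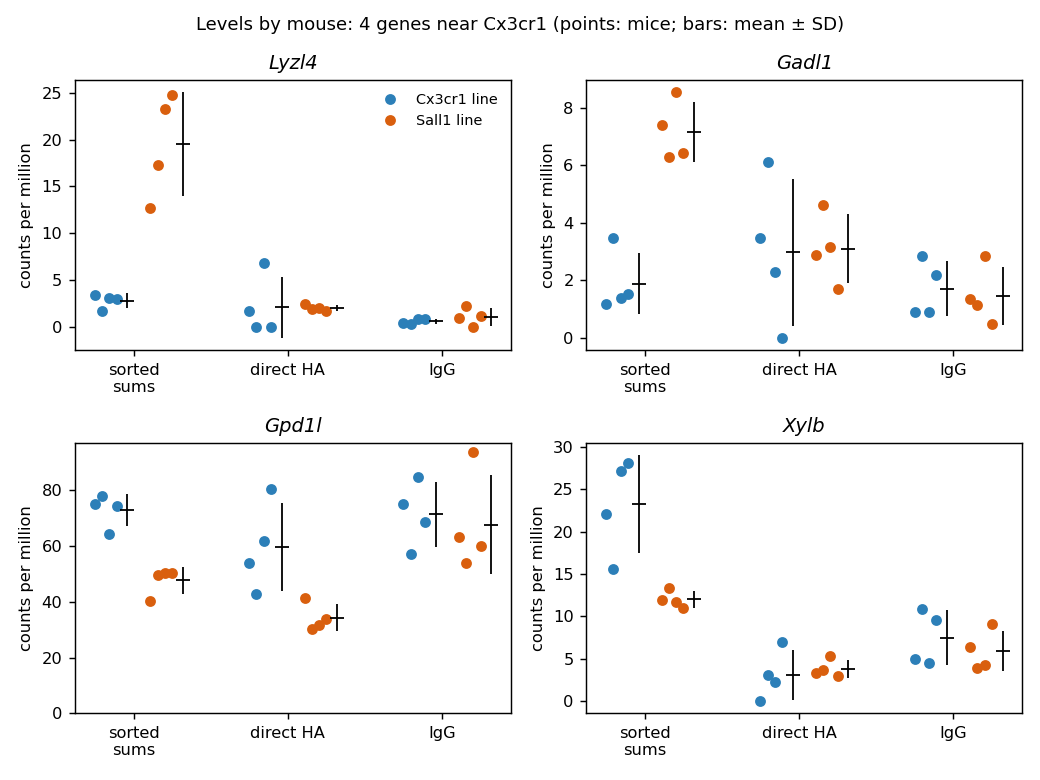
CPM of Lyzl4, Gadl1, Gpd1l and Xylb in each mouse, in sorted sums, direct HA and IgG, with points for mice and bars for the mean ± SD of 4 mice of a line. In sorted sums the lines do not overlap for any of the 4 genes, and in IgG they overlap for all 4.

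The called genes were spread along the stretch. In 2 Mb steps, Gpd1l and Gadl1 fell between 114 and 116 Mb, Xylb between 118 and 120 Mb and Lyzl4 between 120 and 122 Mb. No gene was called in the other 4 steps. Of genes within 1 Mb of Cx3cr1, 1 of 12 tested was called, and of those within 2 Mb 2 of 25. Farther out, 2 of 41 were called. Of all genes tested, 2.67% were called. Lyzl4, within 2 Mb, and Gadl1, farther out, entered the test only through the Sall1 mice, so these counts are no support for a difference by distance. The median absolute difference was log2 0.22 both within 2 Mb and beyond. Across the 66 genes, Spearman's rho of distance with absolute difference was 0.0251, and that of expression level with absolute difference was -0.281; both are across genes of the same 8 sums.

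**Figure D2:**
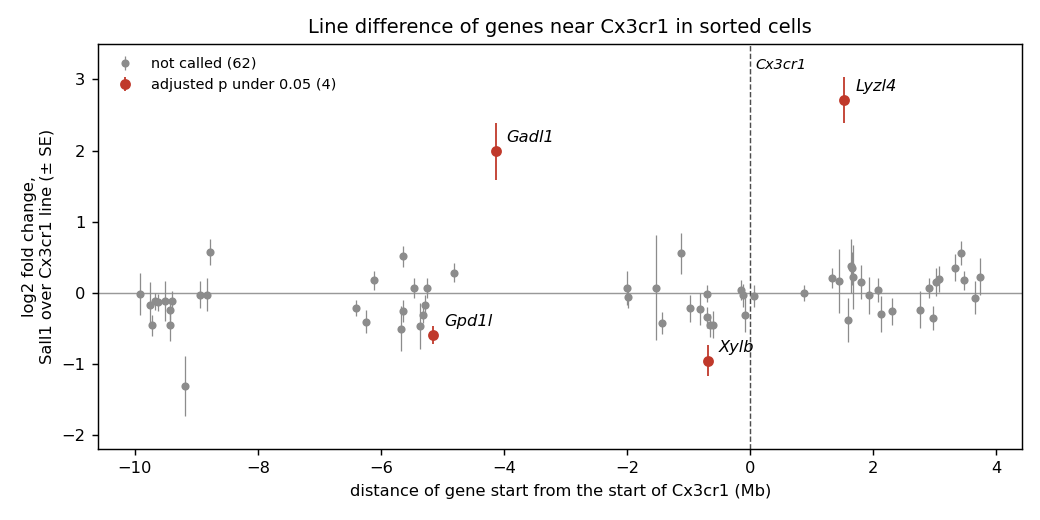
Log2 fold change of Sall1 over Cx3cr1 line in sorted sums (± SE) for the 66 tested genes, against the distance of their start from that of Cx3cr1 in Mb. The 4 called genes lie at -5.15, -4.14, -0.69 and 1.53 Mb. Uncalled genes run from log2 -1.32 ± 0.42 (Als2cl, adjusted p = 0.124) to 0.57 ± 0.18 (Epm2aip1, adjusted p = 0.131).

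The nearest tested neighbours on the lower side were Csrnp1, Gorasp1, Wdr48 and Exog. Csrnp1, a nuclear protein first found as an AXIN1-induced gene, differed by log2 -0.31 ± 0.24 (adjusted p = 0.690). Gorasp1, a protein that stacks Golgi cisternae, differed by log2 -0.04 ± 0.16. Wdr48, a cofactor of deubiquitinating enzymes, differed by log2 0.04 ± 0.14. These last genes overlap on opposite strands, and since no source used here states the strand setting of the count, their counts cannot be fully told apart. Exog, a mitochondrial nuclease, differed by log2 -0.45 ± 0.19 (adjusted p = 0.309).

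On the higher side, Slc25a38, the mitochondrial glycine carrier, starts 0.06 Mb from Cx3cr1. It stood at 43.8, 55.4, 57.5 and 43.0 CPM in the Cx3cr1 line and 41.1, 55.0, 43.5 and 52.7 CPM in the Sall1 line, with overlapping groups. Its difference was log2 -0.05 ± 0.15, with a 95% interval from -0.34 to 0.25. Ctnnb1, which encodes the WNT effector beta-catenin, differed by log2 -0.01 ± 0.11 (95% interval -0.22 to 0.20). Trak1, an adaptor of mitochondrial transport, differed by log2 0.20 ± 0.14. Cck, the neuropeptide cholecystokinin, was between 2.71 and 16.3 CPM over the 8 mice and differed by log2 0.16 ± 0.45.

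Xylb sits among 5 tested genes that start 0.60 to 0.71 Mb before Cx3cr1, and the other 4, Exog included, were not called. Myd88, the adaptor of Toll-like receptors, differed by log2 -0.35 ± 0.15 (adjusted p = 0.30). Acvr2b, a receptor of activins, differed by log2 -0.46 ± 0.16 (adjusted p = 0.198). It stood at 98.8, 99.3, 108.4 and 106.4 CPM in the Cx3cr1 line and at 62.0, 64.5, 109.5 and 64.1 CPM in the Sall1 line. One Sall1 mouse, 7, was above all Cx3cr1 mice, and the other Sall1 mice were below them. Acaa1a, a peroxisomal thiolase that starts between Myd88 and Xylb, differed by log2 -0.02 ± 0.12. These neighbours of Xylb were picked out after their values were seen.

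The genes with the highest levels in sorted cells did not pass the test. Cmtm6, a membrane protein that keeps PD-L1 at the cell surface, was highest at 501.7 ± 32.8 CPM (SD, n = 4) in the Cx3cr1 line and 397.9 ± 42.8 CPM (SD, n = 4) in the Sall1 line. Its groups did not overlap, at 477.2 to 549.4 and 354.5 to 456.7 CPM, and the difference was log2 -0.32 ± 0.11 (adjusted p = 0.151). Cmtm7, of the same family, differed by log2 -0.18 ± 0.15. Pdcd6ip (ALIX), which works with the ESCRT machinery, differed by log2 -0.22 ± 0.11 (adjusted p = 0.419). Ccdc12, a splicing factor, differed by log2 -0.12 ± 0.14.

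Golga4 and Nktr varied more between mice than between lines. Golga4, a golgin of the trans-Golgi, stood at 218.2, 44.4, 43.2 and 134.0 CPM in Cx3cr1 mice 1 to 4. In Sall1 mice 17, 21, 7 and 9 it stood at 183.3, 172.9, 55.2 and 48.6 CPM. Mice 1 and 4 of one line and 17 and 21 of the other were high, and the remaining mice were low. Nktr, a cyclophilin-related protein with arginine-serine repeats, was high in the same 4 mice, at 156.0 to 220.1 CPM, and at 75 to 87.0 CPM in the others. Their line differences were log2 0.07 ± 0.74 and 0.22 ± 0.45, with 95% intervals of -1.38 to 1.52 and -0.65 to 1.10. The split sat in 1 of the 2 sorted libraries of a mouse. Golga4 was at 326.5 and 186.2 CPM in the libraries titled SortIP of Cx3cr1 mice 1 and 4, against 17.7 and 35.4 CPM in those titled Sort. For Sall1 mice 17 and 21 it was at 283.5 and 209.3 CPM in Sort and at 34.7 and 24.0 CPM in SortIP. By description the libraries of the Cx3cr1 line titled SortIP are Sort, and the high values of all 4 mice then lie in Sort. This pattern was noticed after the values were seen.

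By role, Lyzl4 was called in the list of secreted proteins, Gadl1 and Xylb in that of mitochondria and metabolism, and Gpd1l is in no list. Of 17 genes of endosomes, lysosomes, Golgi and trafficking, 16 were tested, with a median of log2 0.02. Glb1, the lysosomal beta-galactosidase, had the smallest p of these. It was at 57.3 to 91.8 CPM in the Cx3cr1 line and 93.5 to 105.6 CPM in the Sall1 line, without overlap (log2 0.51 ± 0.15, adjusted p = 0.0844). Tmppe lies within Glb1 on the same strand, so reads of the pair may be shared. Of 17 genes of chromatin, transcription, RNA and DNA repair, 14 were tested, and Epm2aip1, a partner of the glycogen phosphatase laforin, was foremost at log2 0.57 ± 0.18 (adjusted p = 0.131). Of the 16 cytoskeleton and adhesion genes 5 were tested, and Limd1, a LIM-domain scaffold, was at log2 0.56 ± 0.17 (adjusted p = 0.122). Of 12 immune genes 6 were tested, with a median of log2 -0.21. Of 13 signalling and ubiquitin genes 9 were tested, with a median of log2 -0.14, and of 12 channel, transporter and neural genes 2 were tested, with a median of -0.15. None of these was called.

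At the edge of the chosen stretch, Smarcc1, a subunit of SWI/SNF chromatin remodelling complexes, starts just inside it and Dhx30, an RNA helicase, just outside. Smarcc1 was at 32.6 ± 13.1 and 32.6 ± 8.7 CPM, and Dhx30 was at 72.0 ± 12.4 and 67.2 ± 2.94 CPM, in the Cx3cr1 and Sall1 lines (SD, n = 4 each).

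The count of called genes depended on which sorted libraries were used. With the libraries titled Sort alone, 22 of 61 tested genes near Cx3cr1 were called, when 23.9% of all genes were. With those titled SortIP alone, 10 of 58 were called, when 10.7% of all genes were. With the same groups taken from the descriptions, 1 of 61 and 1 of 58 were called, when 1.49% and 1.13% of all genes were. Lyzl4 was called both in titled Sort (adjusted p = 2.96e-05) and in Sort by description (adjusted p = 0.00238). These choices share the same Sall1 libraries, so they are not independent. In SortIP by either label, Lyzl4 did not pass the count filter. Ctnnb1 (log2 -0.01 ± 0.11) and Cck (log2 0.16 ± 0.45) were not called in the sums. They were called with the opposite sign in titled SortIP and titled Sort, respectively, as given with the processing.

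IgG precipitates of the same mice hold RNA of all brain cells, and they show the lines where sorting plays no part. Of the 127 genes, 82 were tested there and 0 were called, against 0.00863% of all genes, which is 1 of 11593. At an unadjusted p under 0.05 there were 4 (4.88%, against 3.17% of all genes), and DESeq2 called 0. The 4 were Clec3b, Dync1li1, Fyco1 and Lars2, named after their values were seen. The test of whether the line difference differed between sorted sums and IgG called 0 of 88, against 0.180% of all genes. There, 9 had an unadjusted p under 0.05 (10.2%, against 6.35% of all genes), and DESeq2 again called 0. With the mouse as a replicate block, 0 of 90 were called.

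Which of these genes microglia use more than the brain as a whole was read from sorted sums over IgG, averaged over the lines. Of 88 tested genes, 69 were called (78.4%), 31 higher and 38 lower in sorted cells, against 85.0% of all genes, with 39.0% higher and 45.9% lower. Among immune genes, 6 of 7 were higher and 1, Eomes, a T-box factor of lymphocytes and neural progenitors, was lower. Cmtm7 was at 2.84 to 7.93 CPM in IgG and at 161.6 to 290.3 CPM in sorted sums over the 8 mice, without overlap (log2 5.31 ± 0.18). Cmtm6 was higher by log2 4.46 ± 0.14, Cmtm8 by 4.26 ± 0.24 and Myd88 by 3.46 ± 0.18. Nbeal2, a BEACH protein needed for platelet granules, was higher by log2 2.46 ± 0.17. Itga9, an integrin alpha chain, was higher by log2 2.95 ± 0.18.

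Genes of neurons and glia were on the other side. Of 6 tested channel, transporter and neural genes, 5 were lower in sorted cells, and only Nradd, a death-domain protein that resembles the neurotrophin receptor, was higher (log2 2.84 ± 0.23). Cck stood at 537.8 to 691.6 CPM in IgG and at 2.71 to 16.3 CPM in sorted sums (log2 -6.31 ± 0.22). Cspg5, a proteoglycan of neurons and glia, was lower by log2 -6.11 ± 0.32, and Hhatl, a relative of the hedgehog acyltransferase, by -7.62 ± 0.30. Trank1 had 0 to 0.411 CPM in sorted sums and 11.7 to 73.1 CPM in IgG. Among the 13 signalling and ubiquitin genes, 3 were higher and 7 lower, and the receptor of parathyroid hormone, Pth1r, was lower by log2 -5.04 ± 0.38. The 17 trafficking genes were divided into 6 higher and 7 lower. Of the genes named here, Cmtm8 and Nradd entered this test only through sorted sums. Eomes, Cspg5, Hhatl, Trank1 and Pth1r entered it only through IgG. Calls of these genes are therefore no support for a difference. Of the line-called genes, Lyzl4, Xylb (log2 1.21 ± 0.23) and Gadl1 (log2 1.30 ± 0.37) were higher in sorted cells than in IgG, and Gpd1l was slightly lower (log2 -0.27 ± 0.12, adjusted p = 0.0464). Blocking by mouse, the last had an adjusted p of 0.0689. Mean Gadl1 was at 1.89 CPM in sorted sums and 1.70 CPM in IgG in the Cx3cr1 line. In the Sall1 line it was at 7.16 and 1.45 CPM, so its excess over IgG lay in that line. Across all mice, sorted and IgG values overlapped for Gadl1 and for Lyzl4. Both entered this comparison only through the Sall1 sorted sums, so their calls are no support for a difference.

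**Figure D3:**
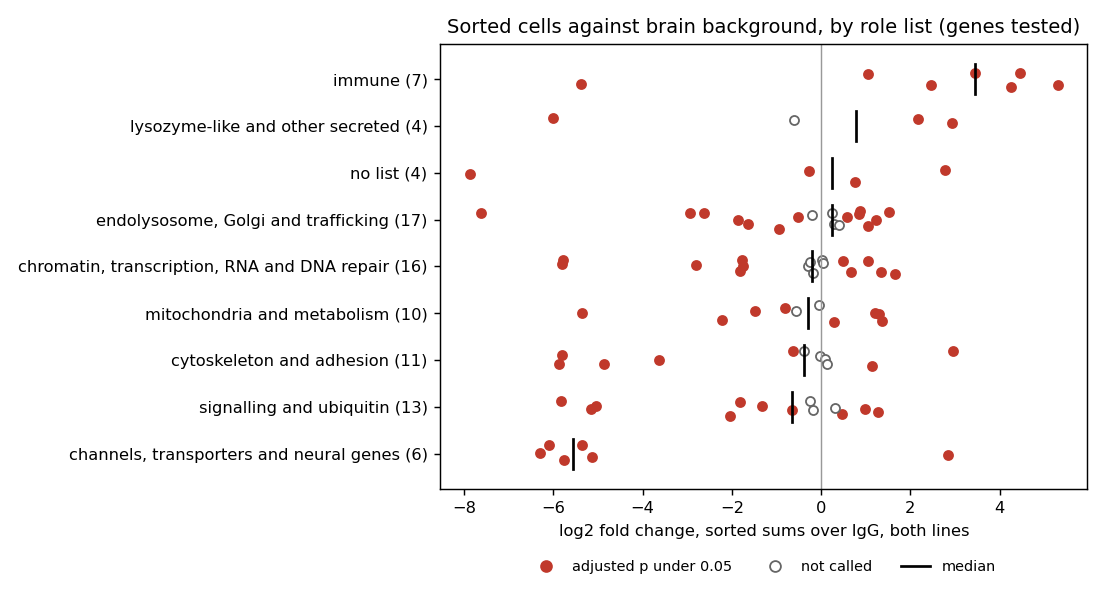
Log2 fold change of sorted sums over IgG in both lines for the 88 tested genes, by role list with the number tested, with filled points for adjusted p under 0.05 and a bar at each median. The immune list has the highest median, 3.46, and the list of channels, transporters and neural genes the lowest, -5.56.

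In direct HA precipitates the lines differ in which brain cells carry the tag. Microglia markers summed to 74824 to 90450 CPM in the Cx3cr1 line and 7833 to 8686 CPM in the Sall1 line. Depth differed too, at 286418 to 574671 gene counts a library in the Cx3cr1 line and 1894943 to 3027342 in the Sall1 line. Of 64 tested genes near Cx3cr1, 34 were called (53.1%), 15 higher and 19 lower in the Sall1 line, against 52.9% of all genes, with 27.2% higher and 25.7% lower. The 4 mice of a line did not overlap those of the other for 37 of the 64 (57.8%), against 50.3% of all genes. The part of the microglia share in each of these differences was not tested.

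Genes high in microglia led the lower side. Cmtm7 was at 111.4, 94.8, 87.2 and 76.8 CPM in the Cx3cr1 line and 7.40, 13.5, 6.86 and 10.7 CPM in the Sall1 line, far apart (log2 -3.43 ± 0.25, adjusted p = 1.44e-11). Nbeal2 was lower by log2 -3.24 ± 0.30, Itga9 by -3.08 ± 0.34, Cmtm6 by -2.77 ± 0.19 and Myd88 by -2.39 ± 0.25. Vipr1, a receptor of vasoactive intestinal peptide that begins next to Lyzl4, was lower by log2 -2.63 ± 0.42. Cmtm6 and Myd88 passed the count filter in both lines. Cmtm7, Nbeal2, Itga9 and Vipr1 passed it only through the Cx3cr1 mice, in which they were high. Their calls are therefore no support for a difference. Unlike the genes before it, Vipr1 was not called in sorted sums over IgG (log2 0.32 ± 0.21, adjusted p = 0.169). In sorted sums Vipr1 differed by log2 -0.39 ± 0.31 (adjusted p = 0.693), the opposite sign to Lyzl4. Gpd1l, called lower in sorted cells, was also lower in direct HA (log2 -0.97 ± 0.23, adjusted p = 9.32e-04), as were 25.7% of all genes. Xylb and Gadl1, like Lyzl4, did not pass the count filter in direct HA. Mean Xylb there was 3.08 CPM in the Cx3cr1 line and 3.80 CPM in the Sall1 line, and mean Gadl1 was 2.97 and 3.10 CPM.

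On the higher side, Cspg5 was at 67.9, 61.2, 45.9 and 59.4 CPM in the Cx3cr1 line and 749.8, 747.9, 618.0 and 908.6 CPM in the Sall1 line. The groups were far apart (log2 3.49 ± 0.20, adjusted p = 1.08e-13). Ccdc13, a protein of centriolar satellites, was higher by log2 3.29 ± 0.45, Hhatl by 2.56 ± 0.29, Pth1r by 2.00 ± 0.47 and Cck by 1.35 ± 0.17. Prss50, a serine protease, had 0 counts in all sorted sums. In direct HA it had 22, 30, 18 and 21 counts in the Sall1 line and 2, 0, 0 and 0 in the shallower libraries of the Cx3cr1 line. Like Ccdc13 and Pth1r, Prss50 passed the filter only through the Sall1 mice, in which these genes were high. Calls of these genes are therefore no support for a difference. No fold is given for Prss50, given its counts in the Cx3cr1 line.

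Over the 63 genes tested in both, the HA line difference and the sorted-over-IgG difference had a Spearman's rho of -0.752, and over 9023 genes of the whole table it was -0.665. The libraries of these comparisons are different but come from the same mice. Of 16 genes near Cx3cr1 more than 2-fold higher in sorted cells, 15 had lower HA values in the Sall1 line, as had 1821 of 2112 such genes of the whole table. Of 21 more than 2-fold lower in sorted cells, 19 had higher HA values, as had 2724 of 3406 such genes of the whole table.

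**Figure D4:**
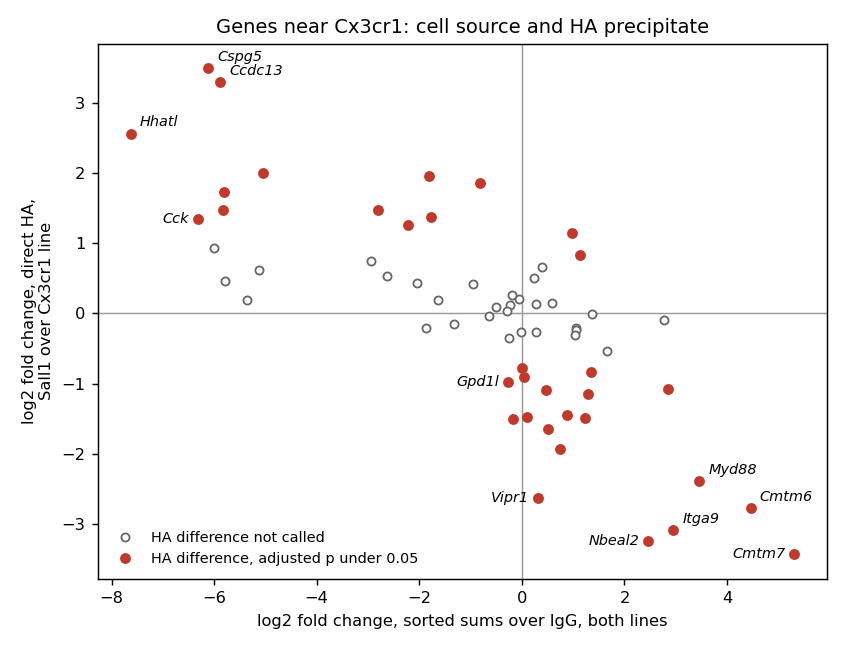
Log2 fold change of Sall1 over Cx3cr1 line in direct HA against that of sorted sums over IgG, for the 63 genes tested in both, with filled points for an HA difference at adjusted p under 0.05. Cmtm7, Cmtm6, Myd88, Itga9 and Nbeal2 lie at the lower right and Cspg5, Ccdc13 and Hhatl at the upper left.

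Some genes named for myeloid cells were near 0 in these sorted cells. Ngp and Ltf, granule proteins of neutrophils, did not pass the count filter. Ngp stood at 5.50 and 2.33 CPM in Sall1 mice 21 and 7, at 1.02 CPM in Cx3cr1 mouse 4, and at 0 in the other 5 mice. In all, 8 of the 127 genes had no count in any of the 32 libraries.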

How the data were processed

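Raw exon counts of 24411 genes in 32 libraries were taken as the authors deposited them. The submitters' processing notes name HISAT 0.1.5, HOMER, bcl2fastq and the mm9 build. Strand setting and treatment of multiply mapped reads are not given in the sources used here. Both sorted libraries of a mouse were summed. Tests used edgeR 4.0.16 in R 4.3.3 (robust quasi-likelihood, TMM, default filter with minimum count 10), fitted to all genes. The SE is the fold change over the square root of F. Alternatives were DESeq2 1.42.0, other scalings, no filter, single libraries, a mouse left out, and mouse blocks (limma 3.58.1 for the random block). Samples of a number share a mouse, per the series' design; correlations of sorted and IgG deviations were -0.018 to 0.227. On simulated counts the sorted fit recovered 82.8% of 2-fold changes (9827 genes) and the IgG fit 44.9% (11393 genes).

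The genes and lists were chosen with earlier results of these data known, and Lyzl4 with its difference known, so its test is not independent evidence. Named genes are Lyzl4, called genes, the 8 highest, the 4 nearest on each side and the smallest p per role; those with the largest HA and sorted-over-IgG changes, Ngp and Ltf were added after values were seen. Promoter windows are RefSeq's (GRCm38.p6).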

Additional observations from a re-analysis of the deposited data

Results flagged for a closer look

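In 58 groups of 4 mice examined, 7 sorted values stood apart from the other 3 by Dixon's test, when chance flags about 1 in 20. Of the called genes, Gadl1 was at 3.46 CPM in Cx3cr1 mouse 2, against 1.16 to 1.53 CPM in the others, and Gpd1l was at 40.3 CPM in Sall1 mouse 17, against 49.5 to 50.5 CPM. Cx3cr1 mouse 2 also held the highest Exog, 61.8 CPM against 49.2 to 50.6 CPM, and the highest Nradd, 28.3 CPM against 17.8 to 18.8 CPM. Cck was at 2.71 CPM in Cx3cr1 mouse 1, against 8.72 to 9.23 CPM. Acvr2b was at 109.5 CPM in Sall1 mouse 7, against 62.0 to 64.5 CPM, and Myd88 was at 113.1 CPM in Sall1 mouse 9, against 74.7 to 78.5 CPM.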

How the results depend on the processing

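In sorted sums, 4 genes near Cx3cr1 were called, 2 of them within 2 Mb of it. Titled Sort libraries alone gave 22 and 9, titled SortIP libraries 10 and 3, Sort by description 1 and 1, and SortIP by description 1 and 1; the cause was not tested. Ctnnb1 and Cck, not called in the sums, were called at log2 0.63 (adjusted p = 0.0134) in titled SortIP and at log2 -1.58 (adjusted p = 0.0355) in titled Sort, respectively. Leaving out 1 mouse gave 2 to 6 calls, and 1 to 2 within 2 Mb, with 2 calls without Cx3cr1 mouse 1 or Sall1 mouse 17. In direct HA it gave 25 to 28 calls of 49 to 51 tested without a Sall1 mouse. Without a Cx3cr1 mouse it gave 32 to 38 calls of 73 to 77 tested there. It gave 66 to 70 calls in sorted over IgG, and 0 in IgG and in the difference of differences. With all mice, 52.9% of all genes were called in direct HA and 85.0% in sorted over IgG. Over all genes in sorted sums, 1.49% to 2.47% were called with 1 mouse left out. Without a filter 6 of 106 were called, against 2.46% of all genes. With the mouse as a random replicate block over 16 sorted libraries 4 of 60 were called, 1 higher and 3 lower, against 3.11% of all genes, and as a replicate block in sorted over IgG 70 of 90. Lyzl4 was called in each of the 15 alternatives that tested it (log2 2.38 to 3.38), Gadl1 in each of 12 (1.82 to 2.36), Gpd1l in 12 of 17 (-0.89 to -0.24; -0.66 to -0.52 with 1 mouse left out) and Xylb in 9 of 17 (-1.52 to -0.72; -1.09 to -0.87). Lyzl4 did not pass the filter in SortIP by either label. Gadl1 did not pass it in any choice of single libraries or with the random block. With a filter, both enter a test only through the Sall1 mice, in which they were high. Their shares of calls can therefore not be set beside those of Gpd1l and Xylb. Low counts limit what can be seen of the 61 untested genes.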
